A study of Mus musculus with 9 samples.

Results

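Transcripts of 10 macrophage marker genes were followed in gastrocnemius, a calf muscle, of mice: Cd68, Adgre1, Csf1r, Mrc1, Cd163, Lyz2, Itgam, Lgals3, Trem2 and C1qa. They were chosen by symbol as markers of resident and recruited macrophages, all 10 were matched by gene identifier in a count table of 55487 genes, and all 10 passed the filter on low counts that left 14851 genes for testing. The Control group (n = 4) came from mice with normal cage activity. The Unloading group (n = 2) came from mice after 10 days of hindlimb unloading, in which a line at the tail lifts the hindquarters and takes the load off the hind legs. The Reloading group (n = 3) came from mice unloaded for 10 days and then returned to normal cage activity for 1 day. The labels describe all mice as male, wild-type C57BL/6, while the study's text gives the substrain as C57BL/6J and describes females for the suspension, and no age was given in the sources used here. Whole muscle was extracted, so the RNA of all its cell types was mixed. Nothing in the labels says that each library came from a separate mouse. If some libraries shared a mouse, the p-values measure only the spread between libraries.

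Macrophages are phagocytes of the myeloid lineage. Muscle holds a resident population around its fibres and vessels, for which Cd163, Mrc1 and Lyve1 are common markers, and blood monocytes enter after damage and mature into macrophages that first clear debris and later support repair. Colony-stimulating factor 1 and interleukin-34 keep these cells alive through the receptor that Csf1r encodes. No marker here is confined to macrophages, since Itgam and Lyz2 are also used by neutrophils and Lgals3 by several epithelial and stromal cells, and in bulk RNA fewer cells of a type and less RNA per cell cannot be told apart.

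The libraries held 9252443 to 19612101 read pairs assigned to genes. Levels are given as CPM, counts per 1e+06 after scaling by TMM (trimmed mean of M-values), on which 1 read pair was worth 0.0546 to 0.113. A group's libraries did not always resemble each other. The summed CPM of 13 skin genes was 332.4 in Control 2 and 152.1 in Reloading 1 but at most 6.69 in the other libraries, and the part of this skin RNA in any marker's level was not tested. The scaling factors were 1.11 to 1.13 in Reloading and 0.928 to 0.96 in the other groups, and without them the all-gene median of the log2 fold change moved from 0.026 to 0.27 for Reloading against Unloading and from 0.013 to 0.25 for Reloading against Control. The fibre genes of the labelled tissue were abundant in every library, with a summed 147800 to 214200 CPM over 12 of them.

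Most of the markers were higher in Reloading. Against Unloading, 9 of the 10 were higher at an adjusted p under 0.05 (edgeR quasi-likelihood F-test, two-sided, Benjamini-Hochberg over all 14851 genes) and 0 were lower, where 18.5% of all tested genes were called higher, 19% lower and 37.5% in either direction. The median log2 fold change of the markers was 0.90, against 0.026 over all tested genes. In the same 9 genes every Reloading library lay above both Unloading libraries, as it did in 31% of all tested genes. The change was uneven: the lysosomal marker Cd68 rose 15.3-fold, the other 8 between 1.49-fold and 3.16-fold, and Cd163 did not pass the test. The summed level of the 10 markers was 79.3 to 94.0 CPM in Control, 84.6 to 85.5 CPM in Unloading and 165 to 182.7 CPM in Reloading.

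**Figure D1:**
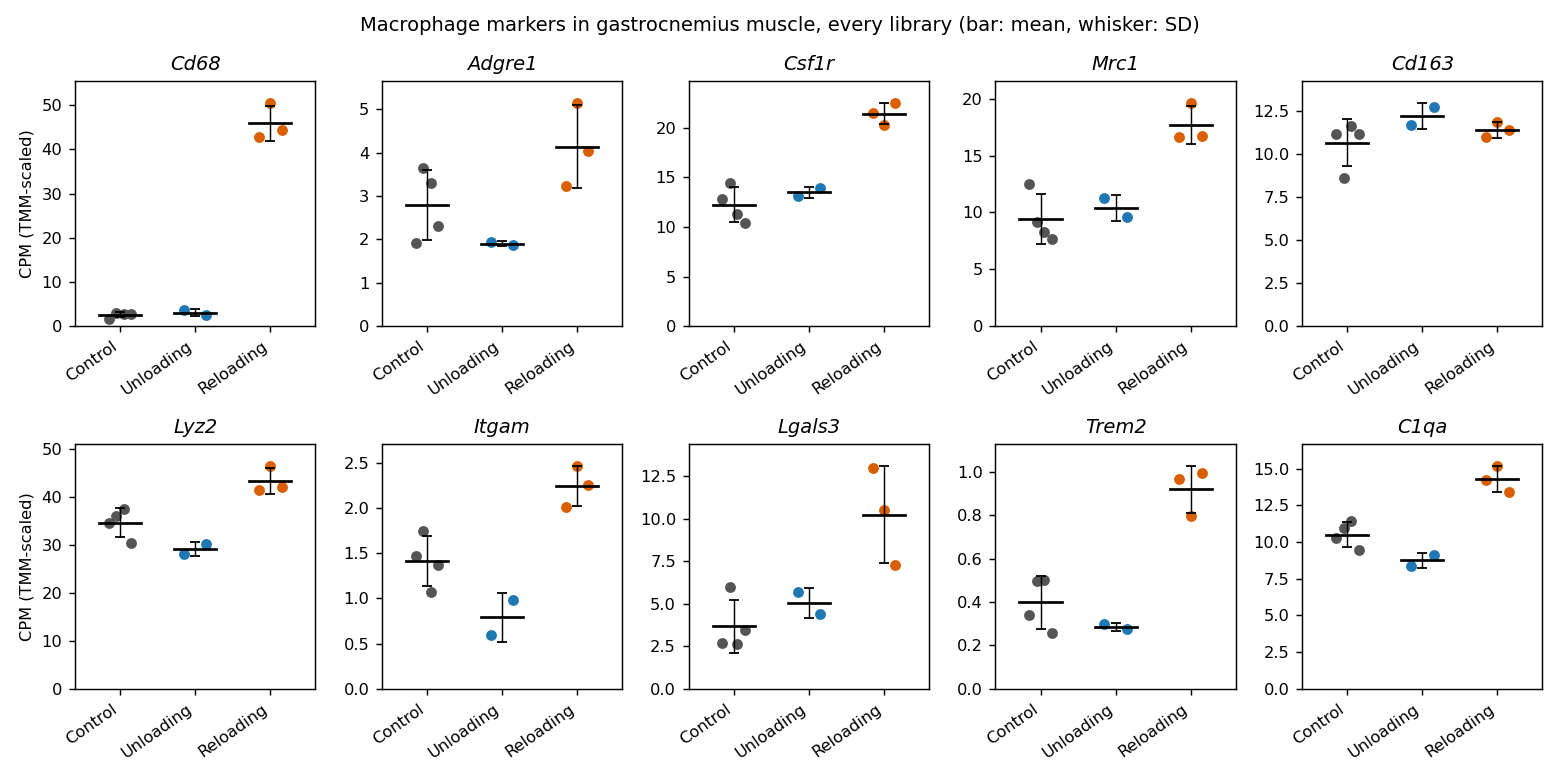
CPM of each macrophage marker (vertical axis, from 0) in every library of Control (n = 4), Unloading (n = 2) and Reloading (n = 3); points are libraries, the long bar is the group mean and the whisker is the SD. Cd68 lay between 42.9 and 50.4 CPM in Reloading and at most at 3.59 CPM elsewhere, while the groups of Cd163 overlapped between Reloading and Unloading.

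Cd68, which encodes a glycosylated protein of late endosomes and lysosomes, showed by far the largest difference. It lies on chromosome 11, from 69664213 to 69666153 on the minus strand of GRCm38.p6. Its level was 1.69, 2.98, 2.79 and 2.83 CPM in Control 1 to 4, 3.59 and 2.51 CPM in Unloading 1 and 2, and 42.9, 50.4 and 44.4 CPM in Reloading 1 to 3. The 3 Reloading libraries stood far above the other 6, which overlapped one another, and in reads this was 532 to 697 pairs against 15 to 48. The log2 fold change was 3.93 ± 0.17 (SE, adjusted p = 1.12e-09, edgeR) against Unloading and 4.12 ± 0.14 (SE, adjusted p = 3.08e-11, edgeR) against Control. Its 95% interval against Unloading, 3.56 to 4.31, lay above the intervals of all the other markers, the next highest of which ended at 2.61 in Trem2. Only 0.411% of all tested genes had a larger log2 fold change in that comparison.

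The Cd68 count was not shared with another gene by position or sequence. None of its 1257 exon bases lies in an exon of another annotated gene, and 0 of the 1296 windows of 50 bases in its transcripts occurred in a transcript of another gene. The nearest expressed neighbour upstream is Eif4a1, a translation initiation helicase on the same strand that ends 783 bases before Cd68 starts. Control had Eif4a1 at 83.3 ± 1.91 CPM (SD, n = 4), Unloading at 100.1 ± 4.15 CPM (SD, n = 2) and Reloading at 152 ± 12.2 CPM (SD, n = 3), a log2 fold change of 0.60 against Unloading (adjusted p = 4.79e-05, edgeR), and whether its transcripts reach into the Cd68 count was not tested. Downstream, Mpdu1 showed a log2 fold change of 0.057 (adjusted p = 0.767, edgeR).

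The promoter of Cd68 is printed because this gene moved most, with the promoters of Itgam, Mrc1 and Cd163 for comparison. Each is 300 bases from the RefSeq promoter table of build GRCm38.p6, 250 before and 50 after the start site, written 5′ to 3′ on the gene's strand. Capitals mark GAGGAA, the core of the box bound by the myeloid factor PU.1, and TGANTCA, the site of AP-1 factors, in both cases on either strand. The windows are chr11:69666121-69666420 for Cd68, chr7:128062390-128062689 for Itgam, chr2:14229164-14229463 for Mrc1 and chr6:124304401-124304700 for Cd163.
Cd68: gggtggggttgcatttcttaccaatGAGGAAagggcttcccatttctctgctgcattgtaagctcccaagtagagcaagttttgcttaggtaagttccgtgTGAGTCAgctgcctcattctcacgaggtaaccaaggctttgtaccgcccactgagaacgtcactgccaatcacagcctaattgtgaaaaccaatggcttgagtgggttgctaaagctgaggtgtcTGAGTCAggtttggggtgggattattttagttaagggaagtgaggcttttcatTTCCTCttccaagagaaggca
Itgam: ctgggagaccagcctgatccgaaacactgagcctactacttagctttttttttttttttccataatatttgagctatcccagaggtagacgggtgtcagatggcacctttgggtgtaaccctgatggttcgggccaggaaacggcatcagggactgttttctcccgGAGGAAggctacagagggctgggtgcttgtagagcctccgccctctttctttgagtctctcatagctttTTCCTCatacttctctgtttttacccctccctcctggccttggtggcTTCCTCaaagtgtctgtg
Mrc1: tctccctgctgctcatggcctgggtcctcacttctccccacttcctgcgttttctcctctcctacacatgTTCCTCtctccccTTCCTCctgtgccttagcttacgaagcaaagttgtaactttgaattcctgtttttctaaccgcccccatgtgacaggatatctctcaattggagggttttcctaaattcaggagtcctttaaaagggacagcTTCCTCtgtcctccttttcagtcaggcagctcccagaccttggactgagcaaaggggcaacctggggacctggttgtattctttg
Cd163: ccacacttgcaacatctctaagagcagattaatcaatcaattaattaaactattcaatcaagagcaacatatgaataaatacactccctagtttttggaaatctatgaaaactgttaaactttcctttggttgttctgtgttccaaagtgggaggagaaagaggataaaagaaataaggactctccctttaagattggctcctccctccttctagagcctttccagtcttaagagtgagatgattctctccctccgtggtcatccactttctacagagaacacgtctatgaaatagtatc
Cd68 held 2 AP-1 letters, at -149 and -24 from the start site, and 2 PU boxes, while Itgam and Mrc1 held 3 PU boxes each and no AP-1 letters, and Cd163 held neither. Of the 7 markers with a window that could be used, 4 held a PU box (Cd68, Mrc1, Itgam and Trem2), against 28.3% of 32851 promoters of the same length, and 2 held AP-1 letters (Cd68 and Trem2), against 7.81%. The core TTGCNNAA of C/EBP factors occurred in the same 2 genes (10.8% of promoters) and TATAAA in 0 of the 7 (13.6%). These are matches of letters in a short window and show no binding.

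Among the surface receptors, Csf1r, the receptor for colony-stimulating factor 1 and interleukin-34, was at 12.9, 14.4, 11.3 and 10.4 CPM in Control, 13.1 and 13.9 CPM in Unloading, and 21.4, 20.3 and 22.5 CPM in Reloading. Control and Unloading overlapped and every Reloading library was above them. Csf1r rose by 0.66 ± 0.13 on the log2 scale (SE, adjusted p = 0.000969, edgeR), 1.58-fold, over Unloading. It lies on chromosome 18 and shares 15.1% of its exon bases with the oppositely oriented Hmgxb3, which had a log2 fold change of -0.15 (adjusted p = 0.314, edgeR) in the same comparison, and read pairs over such shared bases were not assigned to either gene.

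Adgre1 encodes F4/80, the classical surface antigen of mouse macrophages (chromosome 17, 57358691 to 57483527, plus strand). It was at 1.92, 3.65, 3.29 and 2.32 CPM in Control, 1.95 and 1.86 CPM in Unloading, and 3.22, 5.13 and 4.04 CPM in Reloading. The Reloading libraries were above both Unloading libraries but overlapped Control, where Control 2 and Control 3 were above Reloading 1. Adgre1 rose 2.18-fold over Unloading (log2 fold change 1.12 ± 0.28, SE, adjusted p = 0.00504, edgeR).

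Itgam encodes the alpha chain of complement receptor 3, CD11b, found on monocytes, macrophages and neutrophils (chromosome 7, 128062640 to 128118491, plus strand). Its counts were small, at 13, 21, 15 and 16 read pairs in Control, 8 and 18 in Unloading, and 25, 34 and 34 in Reloading. In CPM these were 1.47, 1.74, 1.07 and 1.37, then 0.60 and 0.98, then 2.01, 2.46 and 2.25, so that the 3 groups formed 3 separate ranges with Unloading lowest and Reloading highest. Itgam rose 2.74-fold over Unloading (log2 fold change 1.46 ± 0.31, SE, adjusted p = 0.0018, edgeR). Exons of a readthrough model, Gm49368, cover 68.7% of its exon bases, so read pairs over those bases were not assigned and the level of the gene was understated.

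Trem2, a lipid-sensing receptor of phagocytes that signals through the adaptor Tyrobp, was the scarcest marker (chromosome 17, 48346401 to 48354147, plus strand). Its counts were 3, 6, 7 and 3 read pairs in Control, 4 and 5 in Unloading, and 12, 11 and 15 in Reloading. In CPM, Control lay between 0.26 and 0.50, Unloading at 0.30 and 0.27, and Reloading between 0.80 and 0.99, with Reloading above both other groups. The log2 fold change over Unloading was 1.66 ± 0.45 (SE, adjusted p = 0.00902, edgeR), a 3.16-fold rise resting on these few reads, with a 95% interval from 0.71 to 2.61. It no longer passed with either Unloading library left out (adjusted p = 0.054 without Unloading 1 and 0.0907 without Unloading 2, edgeR) or in DESeq2 (adjusted p = 0.0964).

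The scavenger receptors Mrc1 and Cd163, both used as markers of resident, alternatively activated macrophages, behaved differently. Mrc1, the mannose receptor CD206 (chromosome 2, 14229392 to 14332057, plus strand), was at 12.5, 9.20, 8.29 and 7.64 CPM in Control, 11.2 and 9.56 CPM in Unloading, and 16.7, 19.6 and 16.8 CPM in Reloading. Every Reloading library was above the other 6. Mrc1 rose 1.71-fold over Unloading (log2 fold change 0.77 ± 0.17, SE, adjusted p = 0.00206, edgeR).

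Cd163, the receptor that takes up haptoglobin-haemoglobin complexes (chromosome 6, 124304656 to 124330527, plus strand), was at 11.2, 8.62, 11.7 and 11.2 CPM in Control, 11.7 and 12.7 CPM in Unloading, and 10.96, 11.86 and 11.39 CPM in Reloading. The Reloading range lay within the span of the other groups. The log2 fold change against Unloading was -0.10 ± 0.13 (SE, adjusted p = 0.581, edgeR; 95% interval -0.38 to 0.18), and it was 0.15 when libraries were scaled by their totals alone. The interval of Csf1r, 0.39 to 0.94, lay above that of Cd163.

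Of the secreted products, Lyz2 encodes the macrophage and neutrophil lysozyme (chromosome 10, 117277331 to 117282321, minus strand). It was at 34.5, 36.0, 37.4 and 30.5 CPM in Control, 28.1 and 30.2 CPM in Unloading, and 41.4, 46.4 and 42.1 CPM in Reloading. The groups formed 3 separate ranges, with Unloading lowest, and Lyz2 rose 1.49-fold over Unloading (log2 fold change 0.57 ± 0.10, SE, adjusted p = 0.000373, edgeR). Its paralog Lyz1 shares 15.4% of the 50-base windows of the Lyz2 transcript, and reads from shared sequence could be placed with either gene. Control had Lyz1 at 3.17 ± 0.836 CPM (SD, n = 4), Unloading at 4.67 ± 0.0411 CPM (SD, n = 2) and Reloading at 3.99 ± 0.455 CPM (SD, n = 3).

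C1qa encodes a chain of C1q, the recognition subunit of the classical complement pathway, which tissue macrophages make (chromosome 4, 136895917 to 136898803, minus strand). It was at 10.3, 10.9, 11.4 and 9.44 CPM in Control, 8.38 and 9.12 CPM in Unloading, and 14.3, 15.2 and 13.4 CPM in Reloading. The order of the groups was that of Lyz2, with no overlap, and C1qa rose 1.63-fold over Unloading (log2 fold change 0.70 ± 0.12, SE, adjusted p = 0.000464, edgeR).

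Lgals3 encodes galectin-3, a sugar-binding protein of activated macrophages and of several other cells (chromosome 14, 47367751 to 47386160, plus strand). It was at 2.71, 5.97, 2.64 and 3.43 CPM in Control, 5.69 and 4.43 CPM in Unloading, and 12.97, 10.49 and 7.28 CPM in Reloading. The highest Control and the highest Reloading library were the same 2 that held skin transcripts, Control 2 and Reloading 1. Lgals3 rose 2.03-fold over Unloading (log2 fold change 1.02 ± 0.28, SE, adjusted p = 0.0103, edgeR), and the value was 0.82 with both of these libraries left out (adjusted p = 0.00922, edgeR). Without Unloading 2 it was 0.83 and did not pass (adjusted p = 0.112, edgeR).

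**Figure D2:**
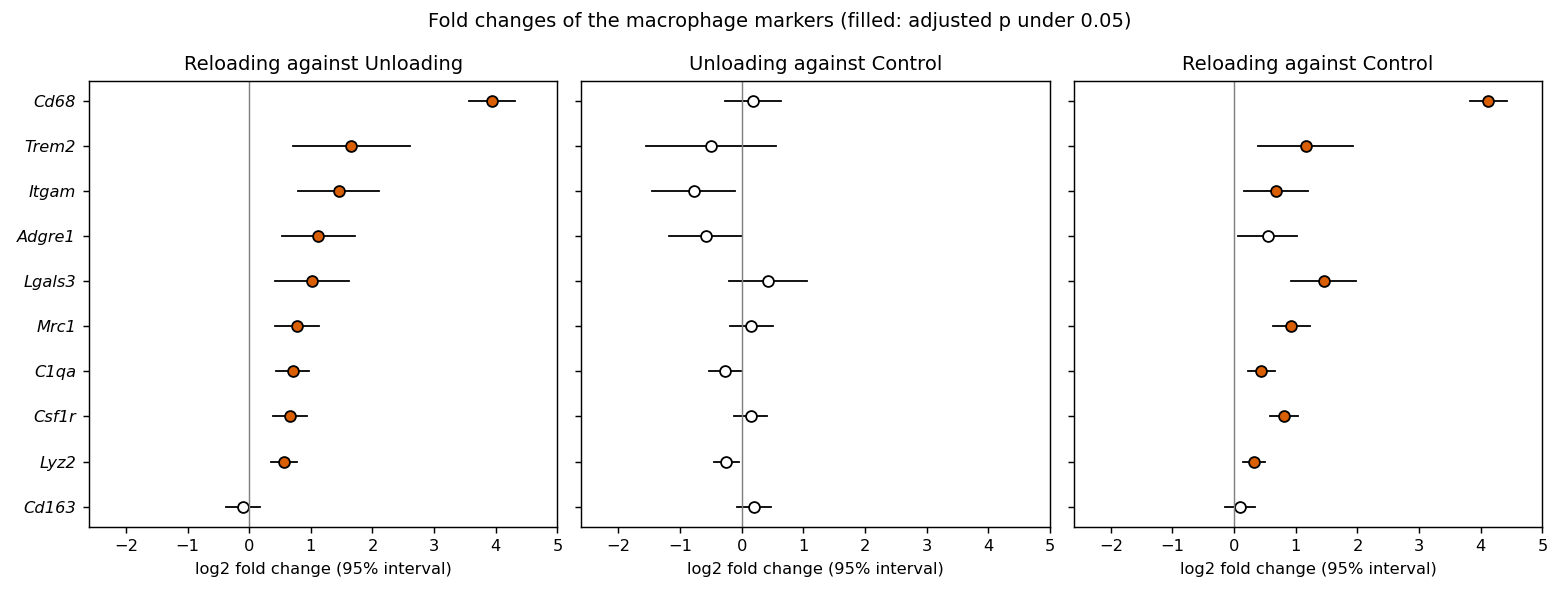
Log2 fold change of each marker (horizontal axis) with its 95% interval in the 3 comparisons, from the edgeR fit over all 9 libraries; filled points have an adjusted p under 0.05. The panels, from left to right, hold 9, 0 and 8 filled points.

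No marker passed the threshold between Unloading and Control. Of the 10, 0 were called higher and 0 lower in Unloading by edgeR, where 4.4% of all tested genes were called higher, 5.5% lower and 9.9% in either direction, and the count by DESeq2 was also 0. At an unadjusted p under 0.05, 3 were lower in Unloading: Lyz2 (log2 fold change -0.25 ± 0.094, SE, adjusted p = 0.109, edgeR), Itgam (-0.78 ± 0.32, SE, adjusted p = 0.134, edgeR) and C1qa (-0.26 ± 0.12, SE, adjusted p = 0.184, edgeR). In the same 3 genes both Unloading libraries lay below all 4 Control libraries, which was the case in 16.6% of all tested genes, and in Cd163 both lay above them, as in 16.4%. With Control 4 left out, Lyz2 passed the threshold (-0.31, adjusted p = 0.0493, edgeR). Lgals3 was at 0.43 (adjusted p = 0.388, edgeR). With both libraries that held skin transcripts left out, Lgals3 was at 0.77 and did not pass (adjusted p = 0.0548, edgeR). With only 2 Unloading libraries the intervals were wide for the scarce markers, from -1.56 to 0.56 for Trem2 and from -1.17 to 0.009 for Adgre1, and narrow for Csf1r, from -0.12 to 0.42.

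Compared with Control, Reloading was higher in 8 of the 10 markers, where 22.1% of all tested genes were called higher, 21.3% lower and 43.5% in either direction, and lower in 0. The 8 were the same in which every Reloading library exceeded every Control library, as in 24.2% of all tested genes, and the median of the 10 markers was 0.74. Cd68 (17.4-fold), Lgals3 (2.74-fold), Trem2 (2.23-fold), Mrc1 (1.90-fold) and Csf1r (1.75-fold) had the larger folds. Itgam (1.60-fold, adjusted p = 0.0336, edgeR), C1qa (1.35-fold, adjusted p = 0.00296, edgeR) and Lyz2 (1.25-fold, adjusted p = 0.0048, edgeR) had the smaller ones. Adgre1 was at 0.54 ± 0.22 (SE, adjusted p = 0.0606, edgeR) and Cd163 at 0.10 ± 0.12 (SE, adjusted p = 0.511, edgeR) on the log2 scale. Adgre1 passed without Control 2 (0.68, adjusted p = 0.0276, edgeR) or without Reloading 1 (0.68, adjusted p = 0.0321, edgeR). Itgam did not pass without Control 3, Control 4, Reloading 2 or Reloading 3 (adjusted p of 0.0624 to 0.11, edgeR), and Trem2 did not without Reloading 3 (adjusted p = 0.0531, edgeR). In DESeq2 neither passed (adjusted p = 0.178 for Itgam and 0.144 for Trem2). With libraries scaled by their totals alone, Cd163 passed at 0.34 (adjusted p = 0.024, edgeR), where the all-gene median was 0.25. The comparisons with Control and with Unloading share the Reloading libraries, so their values are not independent.

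Levels of different genes were compared per kilobase of summed exon length, as RPKM. In Control, Lyz2 was highest at 26.3 ± 2.29 RPKM and C1qa second at 10.1 ± 0.833 RPKM (SD, n = 4). Csf1r, Cd68, Lgals3, Cd163 and Mrc1 followed between 2.12 and 1.48 RPKM, each overlapping its neighbour in the order, and below them came Adgre1 at 0.862, Itgam at 0.281 and Trem2 at 0.0805 RPKM. The order in Unloading was the same at the top and bottom, with Lgals3, Cd68, Csf1r and Cd163 overlapping between 2.72 and 2.23 RPKM. In Reloading, Cd68 moved to the first place at 36.5 ± 3.17 RPKM and overlapped Lyz2 at 32.9 ± 2.07 RPKM (SD, n = 3). C1qa at 13.8, Lgals3 at 5.52, Csf1r at 3.71, Mrc1 at 2.77, Cd163 at 2.09, Adgre1 at 1.28, Itgam at 0.446 and Trem2 at 0.186 RPKM then followed without overlap between neighbours. If Itgam is divided by its 1574 exon bases that are shared with no gene, its level becomes 0.898, 0.503 and 1.42 RPKM in Control, Unloading and Reloading, next to Adgre1. Csf1r on its 4901 such bases becomes 2.50, 2.75 and 4.37 RPKM in the same groups. Its Reloading mean then lies within the Lgals3 range of 3.92 to 6.98 RPKM.

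**Figure D3:**
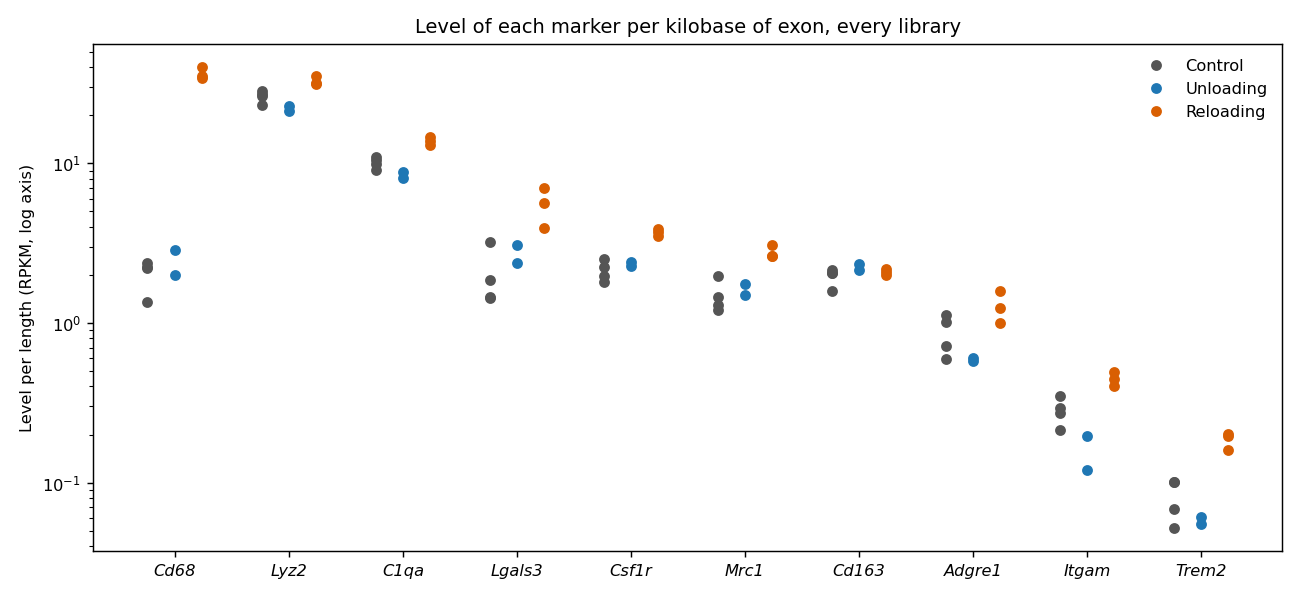
Level of each marker per kilobase of exon (vertical axis, RPKM, log scale) in every library, with the genes in the order of their Reloading means and a colour for each group. Cd68 is among the markers near 2 RPKM in Control and Unloading and at 34.1 to 40.1 RPKM in Reloading.

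The composition of the marker set was then described by ratios of the levels over full exon length within each library, with no test. Read pairs over shared exon bases were not assigned, so Csf1r and Itgam were understated in these ratios. Control had Cd68 over Csf1r at 0.985 ± 0.283 (SD, n = 4), Unloading at 1.05 ± 0.303 (SD, n = 2) and Reloading at 9.89 ± 1.31 (SD, n = 3). Cd163 over Csf1r was 0.944 ± 0.228 in Control and 0.956 ± 0.0194 in Unloading but 0.565 ± 0.0454 in Reloading, where the Reloading libraries did not overlap the Unloading libraries. Mrc1 over Csf1r stayed in overlapping ranges, with means of 0.698, 0.701 and 0.752. Lyz2 over Csf1r was 12.5 ± 1.56 in Control, 9.47 ± 0.0942 in Unloading and 8.91 ± 0.976 in Reloading, and C1qa over Csf1r followed it with means of 4.83, 3.60 and 3.72. Itgam over Csf1r was 0.133, 0.067 and 0.121, lowest in Unloading.

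**Figure D4:**
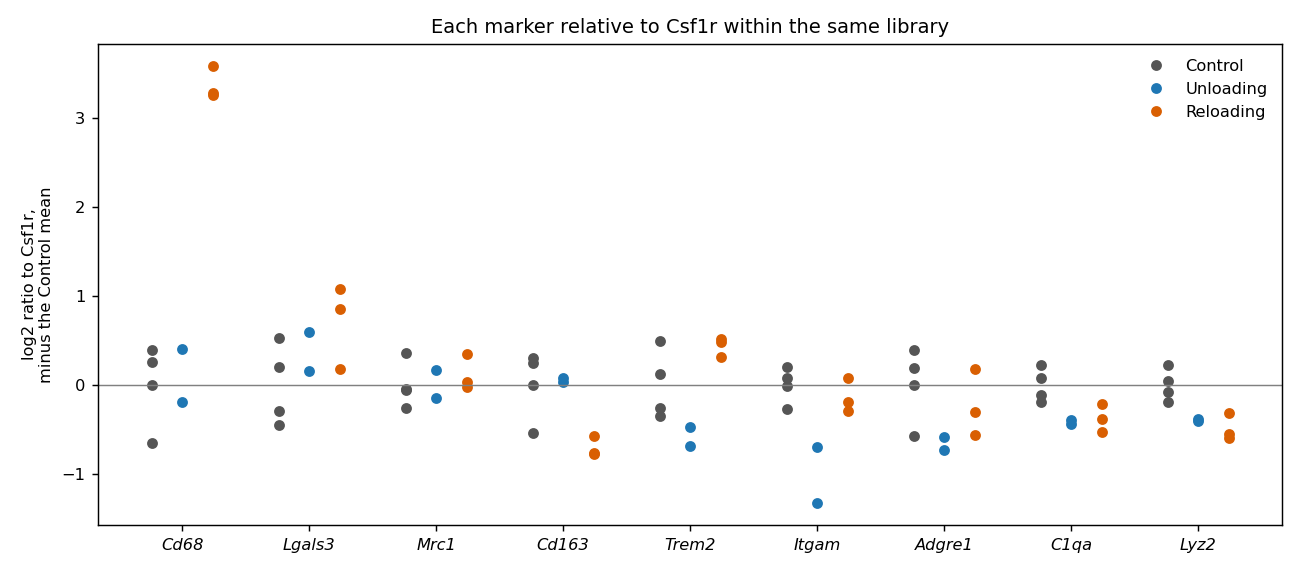
Log2 ratio of each marker to Csf1r within the same library, minus its Control mean (vertical axis), for every library of the 3 groups. The Reloading points of Cd68 lie more than 3 units above 0, those of Cd163 lie below both Unloading points, and those of Mrc1 overlap both other groups.

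The biochemical partners of the receptors were followed in lists of their pathways. Every list count of Reloading against Unloading, here and below, stands beside 18.5% of all tested genes called higher and 19% called lower. Of the CSF1R list (ligands and related cytokine receptors), 4 of 7 genes were tested and 2 were higher in Reloading than in Unloading, Csf2ra (log2 fold change 1.04) and Csf2rb (0.79), both chains of the receptor for granulocyte-macrophage colony-stimulating factor. The ligand Csf1 was at 12.3 and 14.2 CPM in Unloading and 15.3, 17.9 and 13.9 CPM in Reloading (0.24, adjusted p = 0.168, edgeR), and Il34 at 3.14 and 3.39 against 2.98, 4.56 and 5.10 CPM (0.37, adjusted p = 0.197, edgeR). Against Control all 4 tested genes of the list were higher, where 22.1% of all tested genes were. Csf1 was higher by 0.45 (adjusted p = 0.0057, edgeR) and Il34 by 0.77 (adjusted p = 0.005, edgeR) on the log2 scale. Csf2 had 0 read pairs in all libraries. The count of 2 against Unloading fell to 0 without Unloading 1 and to 1 without Unloading 2, Reloading 1 or Reloading 2, and it was 1 in DESeq2 or with both skin libraries left out and 4 with library totals.

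Of the TREM2 list, 4 of 7 tested genes were higher in Reloading than in Unloading and 0 lower. Tyrobp, the adaptor of Trem2, was at 2.02 and 1.64 CPM in Unloading and 3.71, 4.34 and 3.38 CPM in Reloading (log2 fold change 1.07, adjusted p = 0.00302, edgeR). The phosphatase Inpp5d rose by 1.19, the phospholipase Plcg2 by 0.99 and the shedding protease Adam17 by 0.51 on the log2 scale, and without Unloading 2 the count was 2. Apoe, the lipoprotein component apolipoprotein E, was at 68.9 and 67.1 CPM in Unloading and 59.3, 56.7 and 55.2 CPM in Reloading (-0.25, adjusted p = 0.0658, edgeR). It passed as lower in DESeq2 (-0.28, adjusted p = 0.0478), with DESeq2 size factors, with no filter, in a robust fit, with only these 2 groups fitted, and without Control 1 or Control 4, but not with library totals, and it was lower than in Control (-0.34, adjusted p = 0.00556, edgeR). Of the complement list, 4 of 13 tested genes were higher and 0 lower, where 18.5% of all tested genes were called higher and 19% lower. The partners of C1qa in the C1q molecule were among them, C1qb at 1.11 (adjusted p = 0.000721, edgeR) and C1qc at 0.58 (adjusted p = 0.0158, edgeR), with C4b at 1.09 and Itgb2, the beta chain that pairs with Itgam, at 0.94. The proteases C1ra (0.029) and C1s1 (-0.057) and the central component C3 (0.13) did not pass, and without Unloading 1 the count was 2. With library totals it was 7.

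Resident and monocyte genes were followed in separate lists. Of the resident macrophage list, 5 of 16 tested genes were higher in Reloading than in Unloading and 2 lower. Over all tested genes the shares were 18.5% higher and 19% lower. The list median was 0.25, against 0.026 over all tested genes. The fractalkine receptor Cx3cr1 (2.88, adjusted p = 0.0018, edgeR, from 0.22 and 0.05 CPM to 0.80 to 1.29 CPM) and the scavenger receptor Stab1 (1.20, adjusted p = 1.8e-05, edgeR) led those that rose, with Lyve1 at 0.73. The Cx3cr1 value rested on 3 and 1 read pairs in Unloading and 16, 11 and 14 in Reloading. Lyve1 is also in the endothelial list, which rose too. Whether Cx3cr1, Stab1 and Lyve1 rose in resident macrophages or in other cells was not tested. The transcription factor Maf (-0.61, adjusted p = 0.000981, edgeR) and the selenium carrier Selenop (-0.55, adjusted p = 0.000192, edgeR) fell. Maf averaged 290 CPM in Unloading and 190 CPM in Reloading, and Selenop 121 and 82.5 CPM. Csf1r averaged 13.5 and 21.4 CPM in the same groups, and these CPM are not divided by exon length. Which cells the RNA of Maf and Selenop came from was not tested. Folr2 (0.47), Timd4 (0.60), Clec10a (-0.18) and Cbr2 (-0.013) did not pass. The count of 5 was 3 with either Unloading library left out.

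Of the monocyte list, 8 of 10 tested genes were higher in Reloading than in Unloading and 0 lower, and the median was 1.39. Ccr2, the chemokine receptor by which monocytes leave the marrow, was at 2.55 and 1.37 CPM in Unloading and 4.51, 4.70 and 4.70 CPM in Reloading (1.29, adjusted p = 0.00168, edgeR). Chil3, a chitinase-like protein of monocytes, had 0 CPM in all 4 Control libraries and in Unloading 2, 0.15 CPM in Unloading 1 and 0.56 to 0.99 CPM in Reloading (adjusted p = 0.0061, edgeR). Thbs1 (2.33) and Cd44 (1.77) rose with them and are also made by many non-myeloid cells. Ly6c2, the surface antigen of classical monocytes, did not reach the filter and was at 0.075 and 0.055 CPM in Unloading (1 read pair in each), 0.08 to 0.29 CPM in Reloading and 0.21 to 0.45 CPM in Control. Its Reloading libraries lay above both Unloading libraries, by few reads, and overlapped Control.

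In the general myeloid list Cd33 (-0.66, adjusted p = 0.0858, edgeR) and Cybb (-0.18) had negative log2 fold changes and did not pass. The Fc receptor Fcgr1 (1.57, adjusted p = 0.0377, edgeR) had 5 and 6 read pairs in Unloading and 16, 19 and 8 in Reloading. With Fcgr1, 9 of 19 tested genes were higher and 0 lower (median 0.77). Among the 9 were the leukocyte phosphatase Ptprc (0.76, adjusted p = 0.0195, edgeR) and the myeloid transcription factor Spi1 that encodes PU.1 (1.15, adjusted p = 0.015, edgeR). That count was 5 without Unloading 1 and 3 without Unloading 2, and was 3 in DESeq2 and 14 with library totals. Of the repair list, 9 of 17 tested genes were higher and 2 lower, where 18.5% of all tested genes were called higher and 19% lower. Anxa2 (1.57), an annexin, led those that rose, and the lipoprotein lipase gene Lpl (-0.61) those that fell. Lpl averaged 421 CPM in Unloading and 276 CPM in Reloading, and which cells the RNA of Anxa2 and Lpl came from was not tested. Among the 6 not called were Spp1 (0.066, adjusted p = 0.928, edgeR) and Gpnmb (0.56, adjusted p = 0.0641, edgeR). Il10 had 0 read pairs in all libraries. Of the inflammatory list only 3 of 12 genes were tested, and Ptgs2 (1.97) and Nos2 (0.88) were higher, a count that was 0 without Unloading 2 or Reloading 2 and 1 in DESeq2, without Reloading 1 or with both skin libraries left out. Il1b had 8 read pairs and Il6 had 12 over all 9 libraries.

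**Figure D5:**
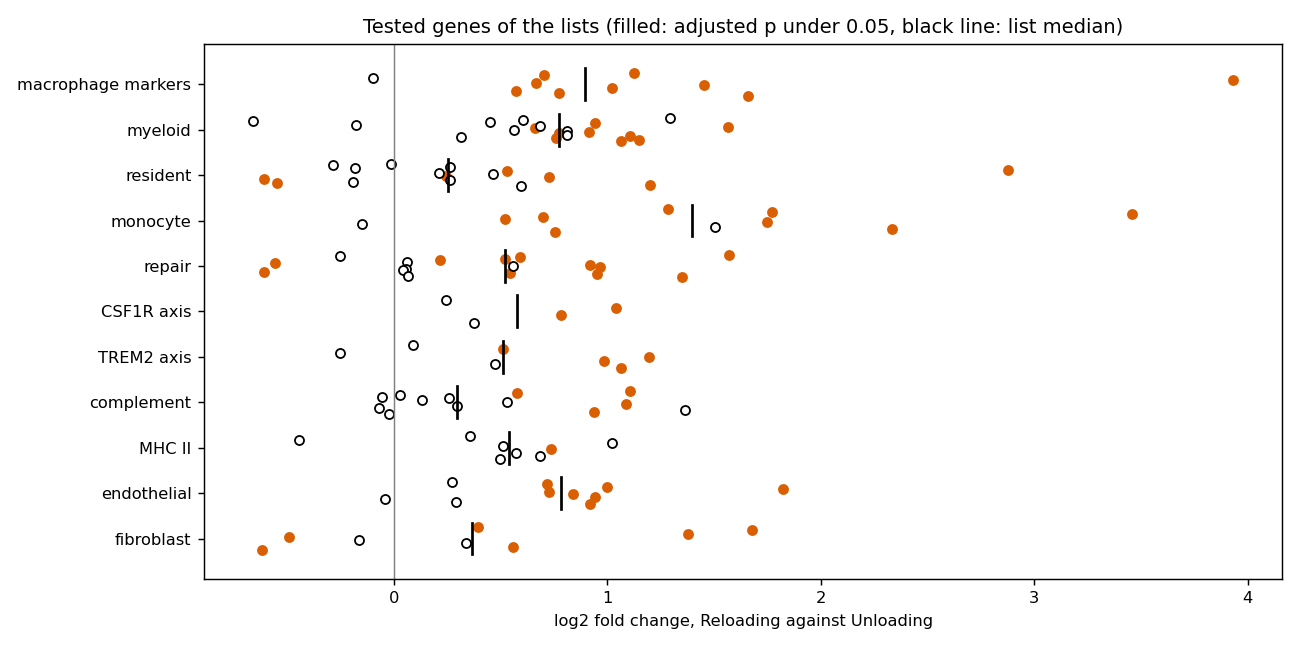
Log2 fold change of Reloading against Unloading (horizontal axis) for every tested gene of the macrophage markers and of 10 other lists; filled points have an adjusted p under 0.05 and the black line is the list median. The monocyte median is at 1.39, the marker median at 0.90 and the resident median at 0.25.

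Markers of the other leukocytes were scarce. The neutrophil list summed to 3.98 to 11.7 CPM in Reloading, 6.96 to 8.14 CPM in Unloading and 1.14 to 9.92 CPM in Control. In the comparison of Reloading with Unloading 0 of its 5 tested genes were called by edgeR or DESeq2, with 1 at an unadjusted p under 0.05, and its defining gene Ly6g had 2 read pairs over all libraries. That count depended on the fit. Lcn2, a secreted iron-binding protein, was called lower with DESeq2 size factors, in a robust fit and with only these 2 groups fitted (-0.92, adjusted p = 0.0336, edgeR). With no filter S100a9 and Cxcr2 were called higher and Mmp9 and Lcn2 lower. Cxcr2, the chemokine receptor of neutrophils, did not reach the filter and is named here after its values were seen: it had 9, 4 and 6 read pairs in Reloading, 0 in both Unloading libraries and 1 in Control, which fell in Control 2. It passed the filter and the test without Unloading 1 (adjusted p = 0.0302, edgeR) or Unloading 2 (adjusted p = 0.0499, edgeR), and Lcn2 passed without Control 1, Control 2, Control 3 or Reloading 2. With the replicate numbers of the sample descriptions as a block, S100a9 and Ngp were higher. The lymphocyte list summed to at most 2.49 CPM in any library and 0 of its 13 genes were tested. Of the dendritic list 2 of 7 genes were tested and 0 were called, and it summed to 7.66 to 11.1 CPM in Reloading and 7.26 to 7.32 CPM in Unloading. Most of this sum was 1 gene, Zbtb46, at 6.13 to 9.60 CPM in Reloading and 5.36 to 5.84 CPM in Unloading. With library totals or both skin libraries left out 1 gene of the list was higher, and with no filter 1 was lower. Of the mast cell list 1 of 5 tested genes was higher, Kit (1.87), or 2 to 3 with library totals, no filter, a robust fit, only these 2 groups, either replicate block, or without Control 1, Control 3, Reloading 1 or Reloading 3, and the list summed to 9.91 to 14.1 CPM in Reloading and 5.19 to 7.19 CPM in Unloading. The endothelial list also moved with the markers: 7 of 10 tested genes were higher, among them Lyve1, which is counted in the resident list as well. The endothelial median was 0.78, and the sum was 267 to 323 CPM in Reloading against 154 to 156 CPM in Unloading. In the fibroblast list 4 of 8 were higher and 2 lower, where 18.5% of all tested genes were called higher and 19% lower. Of the 12 muscle fibre genes 8 were lower (median -0.50), as were mitochondrial reads, at 6.49% to 6.75% of the total in Reloading and 9.36% to 10.6% in the other libraries. The part of these shifts in the marker levels was not tested.

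Across the 9 libraries the markers were correlated with each other except for Cd163. Pearson's r of log2 CPM was highest for Lyz2 and C1qa at 0.987, and was between 0.528 and 0.987 for all pairs without Cd163 and between -0.294 and 0.176 for pairs with it. These values describe 9 points that share 3 groups and the same scaling. The genes most like Cd68 among all tested genes were Enah (r = 0.997), an actin-filament regulator, and Xirp1 (r = 0.995), an actin-binding protein of striated muscle, with log2 fold changes of 2.89 and 4.17 against Unloading. For Csf1r they were Traf7 (r = 0.992) and 4930523C07Rik (0.984), for Mrc1 Garem1 (0.968) and Nup35 (0.966), and for Cd163 Zrsr2 and Zfp236 (0.917 each). For Lyz2 they were Mrtfa (0.983) and Cox8a (0.98), for C1qa Cox8a (0.992) and Paqr4 (0.991), and for Lgals3 Myc (0.995) and Tle3 (0.983). For Trem2 they were Dusp15 (0.991) and Nrp1 (0.985), for Itgam Gm4366 (0.97) and Fam171a2 (0.962), and for Adgre1 Armc6 (0.971) and Abtb2 (0.966).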

How the data were processed

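RNA-seq of poly(A)-enriched RNA was analysed in 9 gastrocnemius libraries. According to the submitters' notes, the authors aligned reads with STAR 2.7.3a to GRCm38.p6 and counted with featureCounts 2.0.3. The deposited count table holds raw, unstranded counts of read pairs per gene of Ensembl release 102, although the methods describe single reads, and pairs that overlap several genes were not counted. The authors' 3 DESeq2 tables hold their own fold changes and p-values, which were not used, and a mean signal per gene (counts divided by size factors, averaged by the authors); only their gene symbols were used.

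The test was the quasi-likelihood F-test of edgeR 4.0.16 under R 4.3.3 (filterByExpr, minimum count 10, minimum total 15; TMM; 1 quasi-likelihood fit of all 9 libraries with group as the only term, common biological coefficient of variation 0.0927), with Benjamini-Hochberg adjustment at 0.05 in each of 3 comparisons. SEs were derived from the F statistic, and log2 CPM used a prior count of 2. RPKM are TMM-scaled CPM per kilobase of exon. DESeq2 1.42.0, other scalings, other filters, a replicate block and left-out libraries were alternatives. The fit was tested on simulated data. Promoters came from RefSeq.

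The markers, 18 other lists and their tests were chosen with earlier results of these data known. All 10 markers are named, with the largest changes in each direction, defining genes and partners from each list, and the 2 genes most correlated with each marker. Of the listed symbols 0 were unmatched. Lists were described by counts and medians. A listed item is not reported here and was left out of the counts. Some genes are in more than 1 list. Promoter windows of Adgre1, C1qa and Csf1r were not used here. Counting error and library number limit the precision, since 1 read pair was worth 0.0546 to 0.113 CPM.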

Additional observations from a re-analysis of the deposited data

Results flagged for a closer look

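Among the 10 markers, 2 had a Control library far from the other 3 by Dixon's criterion at the 95% level, which chance alone meets in about 1 of 20 groups. Cd68 was at 1.69 CPM in Control 1, below 2.79 to 2.98 CPM in the other Control libraries, from 15 read pairs in the library with the lowest total. Cd163 was at 8.62 CPM in Control 2, below 11.15 to 11.65 CPM in the others, and Control 2 was also the library with the most skin transcripts.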

How the results depend on the processing

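The number of markers higher in Reloading than in Unloading was 9, was 7 to 9 with each library left out in turn and 8 to 9 under the other alternatives (library totals, DESeq2 size factors, no filter, DESeq2, a robust fit, only the groups compared, the replicate block, and both libraries with skin transcripts left out). For Reloading against Control it was 8, then 6 to 9 and 6 to 10. For Unloading against Control 0 were higher in all of them, and 0 were lower, or 0 to 1 with a library left out, the 1 being Lyz2 without Control 4. Over all tested genes the calls were 5562, 1470 and 6456 in the 3 comparisons in that order of Reloading against Unloading, Unloading against Control and Reloading against Control; with a library left out they ranged from 3934 to 5654, from 121 (without Unloading 1) to 1518, and from 5267 to 6506. The direction turned in 3 of the markers' values, none of them called: Cd163 in Reloading against Unloading with library totals (0.15), and in Unloading against Control Cd68 without Unloading 1 (-0.061, the range over left-out libraries reaching 0.449) and Mrc1 with the replicate block (-0.004). With library totals 82.8% and 80.2% of the calls were higher in Reloading than in Unloading and than in Control, against 49.3% and 50.9% with the scaling used.

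The titles number the Reloading libraries 1 to 3 and the descriptions number the same libraries 2 to 4, and neither says what a number marks. By the titles, the deviations of 7 same-numbered pairs correlated at -0.16 to 0.192 and over 0.1 in 2. By the descriptions, those of 6 pairs correlated at 0.079 to 0.212 and over 0.1 in 5, so that neither numbering met the criterion of every pair over 0.1, and a pairing by the descriptions cannot be told from these values. With the description numbers as a replicate block, an alternative added after seeing the data, 9, 0 and 7 markers were higher and 0 lower in the 3 comparisons in the order above, where 4902, 1479 and 6632 of all tested genes were called, and Itgam no longer passed in Reloading against Control (adjusted p = 0.0597, edgeR). With the title numbers as a block, Itgam (adjusted p = 0.0633, edgeR) and Trem2 (adjusted p = 0.0753, edgeR) no longer passed in Reloading against Control. Alternatives for the lists, the levels per length and the ratios were added after seeing the data: with libraries left out, the log2 ratio of Cd68 to Csf1r in Reloading minus Unloading ranged from 2.96 to 3.56, that of Cd163 from -0.83 to -0.73, and that of Mrc1 from -0.06 to 0.26, and 159 of 170 alternative levels per length stayed within 1 SD. Depth limits Trem2 and Itgam most.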

Other observations

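Antigen presentation by MHC class II is shared by macrophages, dendritic cells and B cells. In Unloading 5 of 8 of its genes were lower than in Control and 0 higher (edgeR), where 5.5% of all tested genes were called lower and 4.4% higher. Among the 5 were Cd74, the invariant chain (log2 fold change -1.14, adjusted p = 0.015, edgeR), H2-Ab1 (-1.30, adjusted p = 0.00679, edgeR) and H2-Eb1 (-1.38, adjusted p = 0.0104, edgeR). The list median was -1.15. The summed level was 50.4 and 52.7 CPM in Unloading, 70.9 to 73.3 CPM in Reloading and 71.6 to 191.8 CPM in Control, with Control 3 highest. The count of 5 was 3 without the 2 libraries that held skin transcripts, 0 without Unloading 1 and 2 without Unloading 2. Against Unloading, 1 of the 8 was higher in Reloading, H2-Ab1 (0.74, adjusted p = 0.0465, edgeR). This count was 0 in DESeq2, in a robust fit, with the replicate numbers of the sample descriptions as a block, without both skin libraries, and without Unloading 1, Unloading 2, Reloading 1, Reloading 2 or Reloading 3. It was 2 without Control 3 and 5 with no filter or with only the 2 groups fitted, when Cd74, H2-Aa, H2-Eb1 and Ciita also passed. The count of 5 lower in Unloading was 3 in DESeq2 and 1 in a robust fit. Against Control, 4 of the 8 were lower in Reloading and 0 higher, where 21.3% of all tested genes were lower. Among the 4 were Cd74 (-0.78, adjusted p = 0.0114, edgeR) and H2-Eb1 (-0.88, adjusted p = 0.0107, edgeR). This count of 4 was 1 in DESeq2 or with library totals and 0 in a robust fit. It was 2 without Control 3, Reloading 1, Reloading 2 or Reloading 3.

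Retnla, a secreted product of alternatively activated macrophages, was lower than in Control in both Unloading (-0.87, adjusted p = 0.00646, edgeR) and Reloading (-1.06, adjusted p = 6.4e-05, edgeR), and Cbr2 likewise (-0.78 and -0.79). Both are in the resident list, which did not move as a whole. Of its 16 tested genes 0 were higher and 2 lower in Unloading than in Control, where 4.4% of all tested genes were called higher and 5.5% lower. In Reloading against Control 5 were higher, among them Cx3cr1 (1.52), Lyve1 (1.22) and Stab1 (1.15), and 4 were lower. Of all tested genes 22.1% were higher and 21.3% lower there. Mrc1, also used as a marker of alternatively activated macrophages, was higher (0.93).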
